A study of Homo sapiens with 2 samples.

Results

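NF-κB is a family of dimeric transcription factors, and the 10 genes described here encode its subunits (NFKB1, NFKB2, RELA, RELB), members of the IκB family that hold it back or act with it (NFKBIA, NFKBIE, NFKBIZ), a feedback inhibitor (TNFAIP3) and a pair of well-known output genes (TNFAIP2, ICAM1). They were chosen by gene name for their place in the pathway, with earlier results of these data known, and all 10 were found among the 16654 genes of the expression table, each as 1 row matched by gene symbol. RNA was measured by poly(A) RNA sequencing in HUCCT-1, an established human intrahepatic cholangiocarcinoma line, the cancer of the bile ducts inside the liver. There was 1 library from cells given 5 μM XY101 for 48 h, a small-molecule compound known here by its code name, and 1 library from cells given vehicle. The vehicle library is labelled Con2, and cells given GSK805, which the labels also mention, were not analysed here. The comparison asks which RNAs differ after treatment with the compound. Neither condition was replicated, so no test could be run and each difference below describes these 2 libraries and not the conditions at large. Values are in FPKM, fragments per kilobase of transcript scaled to the mapped fragments of the library, so levels of different genes in 1 library can be set side by side.

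In resting cells, NF-κB dimers are kept in the cytoplasm by IκB proteins. Receptors for cytokines such as TNF and for microbial products activate the IκB kinase complex, which marks IκB for destruction and frees the dimer to enter the nucleus; a second, slower route turns the NFKB2 precursor p100 into p52, the usual partner of RELB. Many of the genes that NF-κB switches on encode its own inhibitors or subunits, so that the pathway restrains and replenishes itself. RNA levels do not show where the proteins are or whether p100 and p105 were processed.

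Promoters of genes that NF-κB switches on often carry its binding motif. RefSeq promoter windows (250 bases before to 50 bases after an annotated start, assembly GRCh38.p14) were at hand for 8 of the 10 genes and were searched on both strands for the κB consensus, a 10-base motif of a G-rich and a C-rich end. A match lay in at least 1 window of NFKB1, NFKB2, NFKBIA, NFKBIZ and TNFAIP3 and in none of RELA, TNFAIP2 and ICAM1. Over all 35116 windows 11.3% held a match. That share counts single windows, while a gene can have several, so it is not a background for the count of genes. RELB and NFKBIE were not in the window table. The stretches below, 6 of the 9 found, give 1 for each gene and a further one for NFKB2. The 3 not shown are in NFKB2 and NFKBIZ. Each is 30 bases, written 5′ to 3′ on the strand of its gene, with the matching bases in capitals, and each lies at 1 place on its chromosome in GRCh37. Some starts lie within a gene, so some stretches lie in its annotated exons.
NFKB1, chr4:103422457-103422486, plus strand, motif at positions -49 to -40 from the start and upstream of the annotated gene: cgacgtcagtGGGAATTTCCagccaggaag
NFKB2, chr10:104154219-104154248, plus strand, 3 overlapping matches on both strands at positions -107 to -97, overlapping an annotated exon: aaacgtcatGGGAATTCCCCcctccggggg
NFKB2, chr10:104155431-104155460, plus strand, at positions -21 to -12 of a later start, overlapping an annotated exon: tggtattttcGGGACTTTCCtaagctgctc
NFKBIA, chr14:35874017-35874046, minus strand, match on the opposite strand at positions -81 to -72, upstream of the gene: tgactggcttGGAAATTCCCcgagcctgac
NFKBIZ, chr3:101546601-101546630, plus strand, at positions -223 to -214, upstream of the gene: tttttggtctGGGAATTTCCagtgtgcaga
TNFAIP3, chr6:138188325-138188354, plus strand, 2 matches on the opposite strand between positions -67 and -46, overlapping an annotated exon: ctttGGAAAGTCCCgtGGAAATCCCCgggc
A match is a string of letters and not a measured binding site, and a window without one says nothing of binding elsewhere. The 5 genes with a match did not share a direction: NFKB1, NFKBIA and NFKBIZ were higher, and NFKB2 and TNFAIP3 lower, in the XY101 library.

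The 2 libraries were alike in breadth, with 14719 genes above 0 FPKM with XY101 and 14666 with vehicle. Among the 10894 genes whose FPKM averaged 1 or more over both libraries (called expressed below), the median log2 ratio of XY101 to vehicle was 0.09 (pseudocount of 0.1 FPKM), and the 5th and 95th percentiles were -0.40 and 0.58. All 7 biliary epithelial markers were expressed, with summed levels of 8422 FPKM with XY101 and 10038 FPKM with vehicle, and KRT7 had 4184.91 and 5080.23 FPKM. The markers did not share a direction: 5 were lower with XY101 and 2 higher. The higher ones were EPCAM, with 275.12 and 254.18 FPKM, and CDH1, with 96.19 and 81.93 FPKM. SOX9, a biliary transcription factor, was 1.97-fold lower, with 7.41 and 14.61 FPKM. Of 6 leukocyte markers 5 were in the table, with sums of 73.35 FPKM with XY101 and 96.25 FPKM with vehicle, nearly all of it CD68 (47.17 and 63.58 FPKM) and ITGB2 (26.09 and 32.46 FPKM). PTPRC, the pan-leukocyte gene, was listed at 0 with XY101 and at 0.02 FPKM with vehicle. Of 5 hepatocyte markers only 2 were in the table: SERPINA1 had 214.25 and 179.49 FPKM and APOA1 0.1 and 0.09 FPKM. The part of these differences in the results below was not tested. The 4 endothelial markers summed to 0.7 and 0.72 FPKM. The 5 fibroblast markers summed to 11.29 and 8.17 FPKM, most of it COL1A1. In bulk RNA, fewer cells that use a gene and less of its RNA per cell cannot be told apart.

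The 10 genes were well expressed in both libraries and differed little between them. Their mean levels ran upward from that of NFKBIE, with 13.29 FPKM with XY101 and 14.64 FPKM with vehicle, to that of TNFAIP2, with 414.93 and 239.04 FPKM. In the XY101 library the order was TNFAIP2, NFKBIA, RELA, ICAM1, NFKB2, NFKBIZ, RELB, NFKB1, TNFAIP3 and NFKBIE. In the vehicle library ICAM1 stood ahead of RELA and RELB ahead of NFKBIZ, and the other places were the same. Neighbours in these orders cannot be separated by replicate spread, since there is none.

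**Figure D1:**
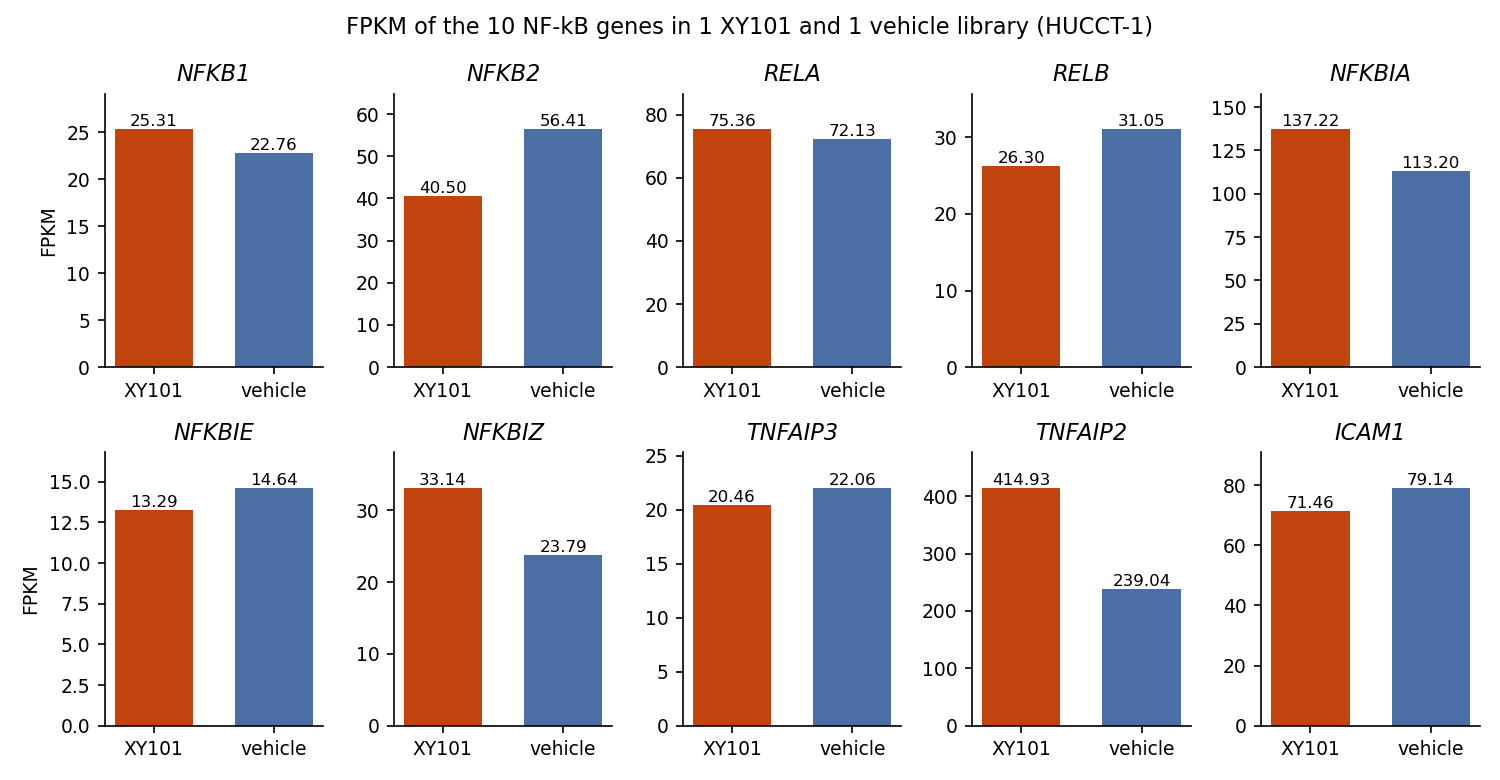
FPKM of each of the 10 genes in the XY101 library (left bar) and the vehicle library (right bar), 1 library each, with a separate linear axis from 0 for every gene. TNFAIP2 shows the widest gap, at 414.93 and 239.04 FPKM, and NFKB2 is the gene most reduced, at 40.5 and 56.41 FPKM.

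Only TNFAIP2 passed a 1.5-fold difference. It was higher with XY101, as were 4.9% of all genes at that threshold, and none of the 10 was 1.5-fold lower, where 2.32% of all genes were. None was 2-fold higher or lower, against 1.17% and 0.698% of all genes (127 and 76 genes, or 96 and 95 once ratios were centred on the median gene). With 10 genes, counts of 1 and 0 are near these shares. Of the 10 log2 ratios 5 lay below 0, while 35.3% of all genes did, and the median of the 10 was -0.02, against 0.09 for all genes. That median was 0.02 when FPKM were scaled to the same sum, so its sign depended on the scaling. TNFAIP2, at the 97.9 percentile of all ratios, and NFKB2, at the 3.63 percentile, were the 2 genes outside the 5th to 95th percentile range of all genes, a range that leaves out 10% of genes by construction.

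**Figure D2:**
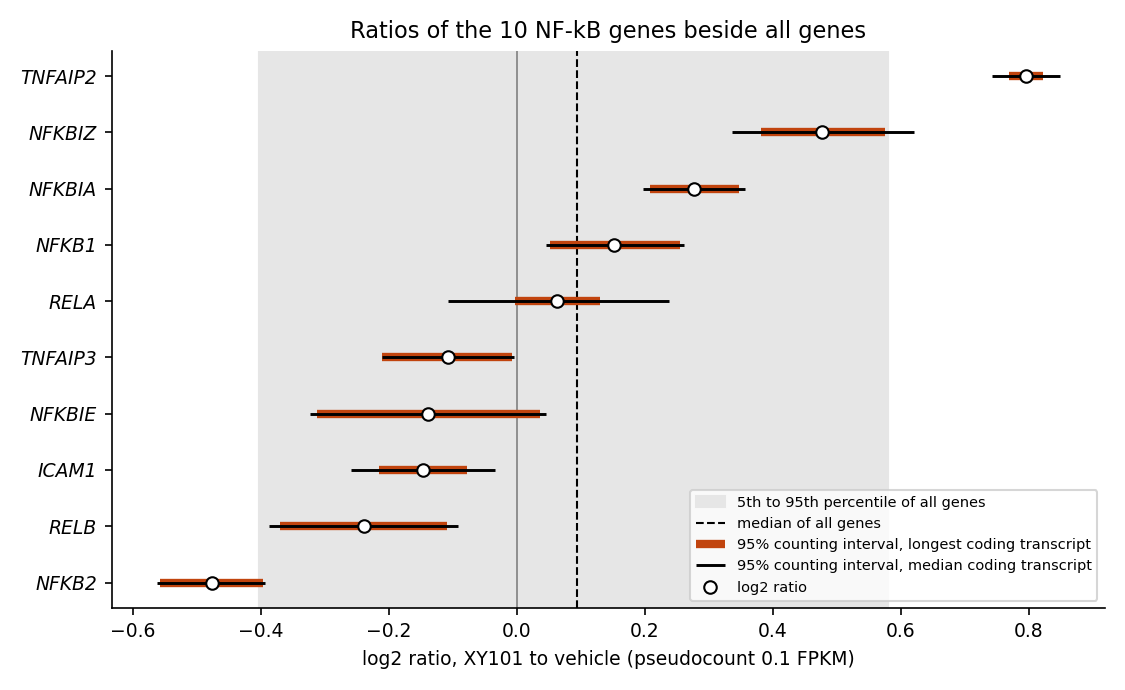
Log2 ratio of XY101 to vehicle for the 10 genes (circles), with the 95% counting interval at the median (thin line) and the longest (thick line) coding transcript; the band spans the 5th to 95th percentile of all 10894 genes and the dashed line is their median at 0.09. NFKB2 at -0.48 and TNFAIP2 at 0.80 lie outside the band, and the other 8 genes lie inside it.

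Read depth is not given with FPKM values. It was estimated at about 17000000 fragments in each library from the spacing of low values, and the intervals quoted here are 95% exact binomial intervals of the log2 ratio made from it, at the median length of a gene's coding transcripts. They cover counting error only and leave out the spread between cultures, which 1 library per condition cannot show.

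The subunit genes differed in direction. RELA encodes p65, the main transactivating subunit of the classical pathway (NCBI gene 5970, chromosome 11 from 65421070 to 65430561, minus strand, in GRCh37 with GENCODE release 44, as are all gene positions below). It had 75.36 FPKM with XY101 and 72.13 FPKM with vehicle, a log2 ratio of 0.06 that turned to -0.03 when ratios were centred on the median gene. Its counting interval ran from -0.11 to 0.24 and still took in 0 with the longest coding transcript, so no difference in RELA was detectable at this depth. NFKB1 encodes the precursor p105, from which the DNA-binding subunit p50 is made (NCBI gene 4790, chromosome 4 from 103422487 to 103538459, plus strand). NFKB1 had 25.31 FPKM with XY101 and 22.76 FPKM with vehicle, a log2 ratio of 0.15 (interval 0.05 to 0.26). That ratio lay at the 58.9 percentile of all genes, close to the middle.

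The subunits of the alternative pathway were both lower with XY101. NFKB2, which encodes p100 and its product p52 (NCBI gene 4791, chromosome 10 from 104153867 to 104162281, plus strand), had 40.5 FPKM with XY101 and 56.41 FPKM with vehicle. It was 1.39-fold lower, the lowest ratio of the 10 genes, at -0.48 on the log2 scale (interval -0.56 to -0.39, from about 1944 and 2708 fragments). RELB (NCBI gene 5971, chromosome 19 from 45504719 to 45541450, plus strand) had 26.3 FPKM with XY101 and 31.05 FPKM with vehicle and was 1.18-fold lower (log2 ratio -0.24, interval -0.39 to -0.09). With the shortest coding transcript, which gives about 210 and 248 fragments, the RELB interval widened to 0.03 above 0. REL, the remaining subunit and one used mainly by lymphocytes, is not among the 10 genes and was near the floor, with 0.72 FPKM with XY101 and 0.57 FPKM with vehicle.

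Seen as a mixture, the subunit RNA differed in make-up. The 5 subunit genes summed to 168.19 FPKM with XY101 and 182.92 FPKM with vehicle. RELA made up 44.8% of that sum with XY101 and 39.4% with vehicle, and NFKB2 24.1% and 30.8%. NFKB1 made up 15.05% and 12.4%, and RELB 15.6% and 16.97%. The ratio of NFKB2 to NFKB1, the genes of the precursor proteins, was 1.60 with XY101 and 2.48 with vehicle. That of NFKB2 to RELB was 1.54 and 1.82. Ratios within a library do not depend on how the libraries are scaled to each other.

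The IκB genes in the set were higher with XY101 in 2 of 3 cases. NFKBIA encodes IκBα, the inhibitor that binds RELA dimers and is resynthesised soon after NF-κB is activated (NCBI gene 4792, chromosome 14 from 35870285 to 35873955, minus strand). It had 137.22 FPKM with XY101 and 113.2 FPKM with vehicle, 1.21-fold higher (log2 ratio 0.28, interval 0.20 to 0.36), and was the most abundant IκB gene in both libraries. This ratio lay at the 76.6 percentile of all genes. NFKBIZ encodes IκBζ, a nuclear IκB that works with p50 and is needed for a subset of secondary response genes (NCBI gene 64332, chromosome 3 from 101546835 to 101579866, plus strand). It had 33.14 FPKM with XY101 and 23.79 FPKM with vehicle, 1.39-fold higher (log2 ratio 0.48, interval 0.34 to 0.62), at the 91.5 percentile. The annotation places NXPE3 over 15753 bp of the same strand, but NXPE3 itself had only 1.76 and 1.54 FPKM. NFKBIE encodes IκBε, a slower cytoplasmic inhibitor (NCBI gene 4794, chromosome 6 from 44225903 to 44233525, minus strand). It was the lowest of the 10 genes, with 13.29 FPKM with XY101 and 14.64 FPKM with vehicle, and its interval, -0.32 to 0.04 around a log2 ratio of -0.14, took in 0.

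The IκB family list has 6 genes, all expressed, of which 3 lay above and 3 below 0 (median log2 ratio 0.13), where 35.3% of all genes lay below 0. BCL3, another nuclear IκB that acts with p50 and p52, had 38.98 FPKM with XY101 and 25.39 FPKM with vehicle, 1.54-fold higher. It was the only one of the 6 past 1.5-fold, where 4.9% of all genes were higher and 2.32% lower. NFKBIB, the gene of IκBβ, had 21.47 and 21.76 FPKM. NFKBID, the gene of IκBNS, had 2.45 and 3.25 FPKM. The nuclear proteins IκBζ and BCL3 can activate as well as repress, so the family is not a set of inhibitors alone. Summed over the 3 classical cytoplasmic inhibitors (NFKBIA, NFKBIB, NFKBIE), inhibitor RNA was 171.98 FPKM with XY101 and 149.6 FPKM with vehicle. Set against the 5 subunits, that is 1.02 FPKM of inhibitor per FPKM of subunit with XY101 and 0.82 with vehicle, a 1.25-fold higher ratio. That denominator includes NFKB2, which was lower with XY101. Against RELA, RELB and REL alone the ratio was 1.16-fold higher. NFKBIA over RELA alone was 1.82 with XY101 and 1.57 with vehicle.

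**Figure D3:**
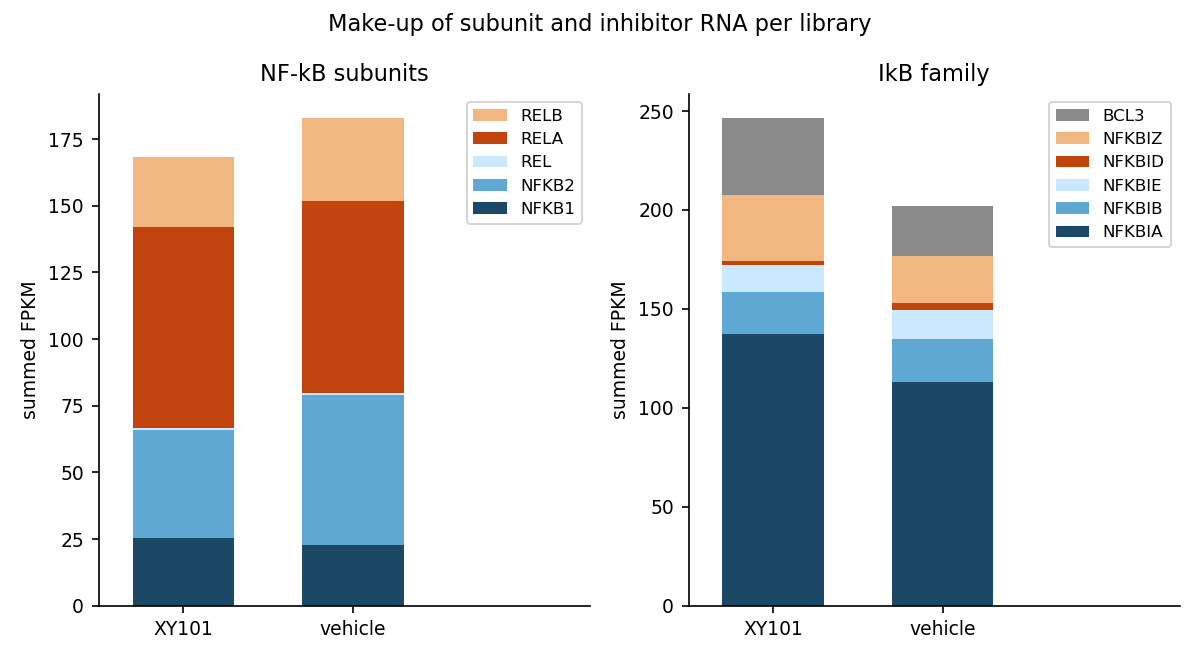
Summed FPKM of the 5 NF-κB subunit genes (left panel) and the 6 IκB family genes (right panel), stacked by gene, with the XY101 library left of the vehicle library in each panel. The subunit stack is 168.19 FPKM with XY101 and 182.92 FPKM with vehicle, with a thinner NFKB2 layer with XY101, and the IκB stack is 246.55 and 202.03 FPKM.

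TNFAIP3 encodes A20, a ubiquitin-editing enzyme that is induced by NF-κB and shuts off signalling from the TNF receptor (NCBI gene 7128, chromosome 6 from 138188351 to 138204451, plus strand). It had 20.46 FPKM with XY101 and 22.06 FPKM with vehicle, 1.08-fold lower, with a log2 ratio of -0.11 at the 22.2 percentile. Its interval, -0.21 to -0.01, ended close to 0 and took 0 in with the shortest coding transcript. A20 acts with partners, and of 13 feedback genes 12 were expressed. Of these 8 lay above and 4 below 0, where 35.3% of all genes lay below 0. Their median was 0.05 (-0.04 once centred on the median gene, and also below 0 when scaled to the upper quartile). TNIP1, the A20-binding protein ABIN1, was the most abundant, with 227.52 FPKM with XY101 and 222.92 FPKM with vehicle. ZC3H12A, the RNase regnase that degrades cytokine RNA, had 105.21 and 87.11 FPKM. CYLD, a deubiquitinase of the same signalling complexes, had 2.69 and 2.87 FPKM. The only one past 1.5-fold was PDLIM2, known to promote turnover of nuclear RELA, with 17.4 FPKM with XY101 and 30.46 FPKM with vehicle, 1.75-fold lower. Among all genes 2.32% were at least 1.5-fold lower and 4.9% at least 1.5-fold higher.

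TNFAIP2 showed the largest difference of the 10 genes. It encodes M-Sec, a protein first found as a TNF-induced transcript and known for forming membrane nanotubes between cells (NCBI gene 7127, chromosome 14 from 103587813 to 103603776, plus strand). It had 414.93 FPKM with XY101 and 239.04 FPKM with vehicle, 1.74-fold higher (log2 ratio 0.80, interval 0.74 to 0.85). The ratio was 0.70 once centred on the median gene. ICAM1, the adhesion molecule through which leukocytes bind epithelium and endothelium (NCBI gene 3383, chromosome 19 from 10381769 to 10397291, plus strand), had 71.46 FPKM with XY101 and 79.14 FPKM with vehicle. It was 1.11-fold lower (log2 ratio -0.15, interval -0.26 to -0.03), and the interval took in 0 with the shortest coding transcript. The level of TNFAIP2 over that of ICAM1 was thus 5.81 with XY101 and 3.02 with vehicle. Antisense transcripts overlap both genes (LIMASI over 14016 bp of ICAM1, LINC00677 over 1532 bp of TNFAIP2). The sources used here do not say whether counting used strand, so reads from the opposite strand cannot be told apart.

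The wider set of NF-κB target genes ran in both directions and covered a wider range than the 10 genes, though it is also a longer list. Of 51 listed, 49 were in the table and 44 of those were expressed. Above 0 lay 20 and below it 24, where 35.3% of all genes lay below 0. Their median log2 ratio was -0.09, against 0.09 for all genes. Of these 44, 5 were at least 1.5-fold higher, TNFAIP2 among them, and 7 at least 1.5-fold lower, where 4.9% and 2.32% of all genes were. Besides TNFAIP2, the higher ones were PTGS2, the inducible prostaglandin synthase (12.21 FPKM with XY101 and 3.38 FPKM with vehicle), the complement gene CFB (266.63 and 126.67 FPKM), the neutrophil chemokine CXCL6 (274.51 and 141.43 FPKM) and BIRC3, a ubiquitin ligase of the TNF receptor complex (22.87 and 11.53 FPKM). The lower ones included the pentraxin PTX3 (15.44 FPKM with XY101 and 36.03 FPKM with vehicle), the survival gene BCL2A1 (7.16 and 15.62 FPKM), and PLAU, the urokinase gene (248.26 and 473.75 FPKM). They also held the cytokine genes IL6 (95.11 and 165.39 FPKM), IL1B (54.87 and 89.37 FPKM) and IL23A (8.15 and 12.46 FPKM) and the signalling adaptor gene TRAF1 (2 and 3.3 FPKM). PTGS2 and CFB were past 2-fold upward, and PTX3 and BCL2A1 past 2-fold downward. BCL2A1 rested on about 60 and 130 fragments, and its interval, -1.58 to -0.66, took in differences smaller than 2-fold. The intervals of IL1B (-0.93 to -0.48), IL23A (-0.99 to -0.25) and TRAF1 (-1.04 to -0.41) took in differences smaller than 1.5-fold. The most abundant targets differed less. LCN2, the iron-scavenging lipocalin, had 5470.39 FPKM with XY101 and 6140.81 FPKM with vehicle, and SAA1, an acute-phase gene that shares much sequence with SAA2, had 2147.92 and 2723.28 FPKM.

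**Figure D4:**
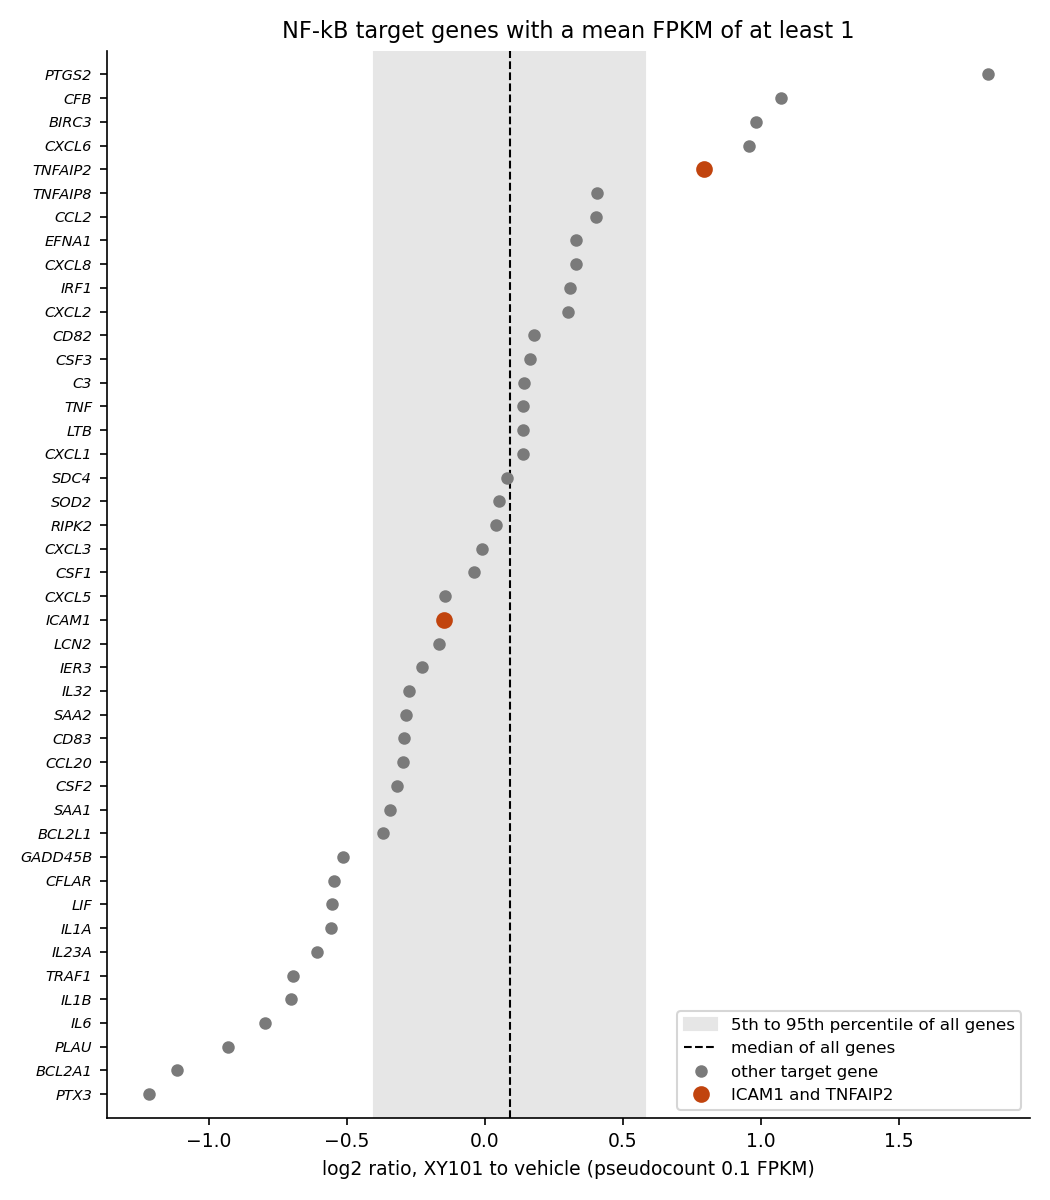
Log2 ratio of XY101 to vehicle for the 44 expressed NF-κB target genes, ordered by ratio, with ICAM1 and TNFAIP2 marked; the band spans the 5th to 95th percentile of all genes and the dashed line is their median. The targets run down to -1.22 (PTX3) and up to 1.82 (PTGS2), with TNFAIP2 at 0.80 among the highest and ICAM1 at -0.15 in the middle.

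Genes that carry the signal to NF-κB ran in both directions. Of 11 kinase genes and kinase partners, 7 lay above and 4 below 0, where 35.3% of all genes lay below 0. Their median was 0.22, against 0.09 for all genes. IKBKG, the regulatory subunit NEMO, had 21.11 FPKM with XY101 and 22.02 FPKM with vehicle. TANK, an adaptor of the kinases TBK1 and IKKε, was the only one past 1.5-fold, with 7.41 and 4.12 FPKM. Only about 67 and 37 fragments lay behind these values, and its interval, 0.26 to 1.48, reached below 1.5-fold. Among all genes 4.9% were at least 1.5-fold higher and 2.32% at least 1.5-fold lower. IKBKE, which encodes IKKε, had the highest mean level, with 50.08 and 33.43 FPKM, and fell just short of that threshold (log2 ratio 0.58). Of 21 receptor and adaptor genes, 17 were expressed, with 12 above and 5 below 0 and a median of 0.15. RIPK1, the kinase scaffold of the TNF receptor complex, had 6.61 FPKM with XY101 and 4.01 FPKM with vehicle, and IRAK3, an inhibitory kinase of the Toll-like receptor pathway, had 1.82 and 0.94 FPKM, from about 48 and 25 fragments. IRAK1, another kinase of that pathway, had 145.7 and 193.73 FPKM. RBCK1, part of the linear ubiquitin ligase, had 182.29 and 196.25 FPKM.

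In the alternative pathway, whose subunits NFKB2 and RELB were both lower with XY101, 8 of 10 other genes were expressed. Above 0 lay 6 and below it 2, where 35.3% of all genes lay below 0. Their median of 0.08 became -0.01 once centred on the median gene. BIRC3 and BIRC2 encode ubiquitin ligases that keep the NF-κB-inducing kinase low in resting cells. They were 1.98-fold and 1.54-fold higher, with 22.87 and 19.33 FPKM with XY101, against 11.53 and 12.59 FPKM with vehicle. Among all genes 4.9% were at least 1.5-fold higher. The kinase gene itself, MAP3K14, had 4.43 FPKM with XY101 and 6.21 FPKM with vehicle, a log2 ratio of -0.48 (interval -0.70 to -0.27). LTBR, a receptor of this route, had 169.37 and 167.72 FPKM, and TNFRSF12A, the receptor Fn14, had 138.72 and 181.78 FPKM.

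**Figure D5:**
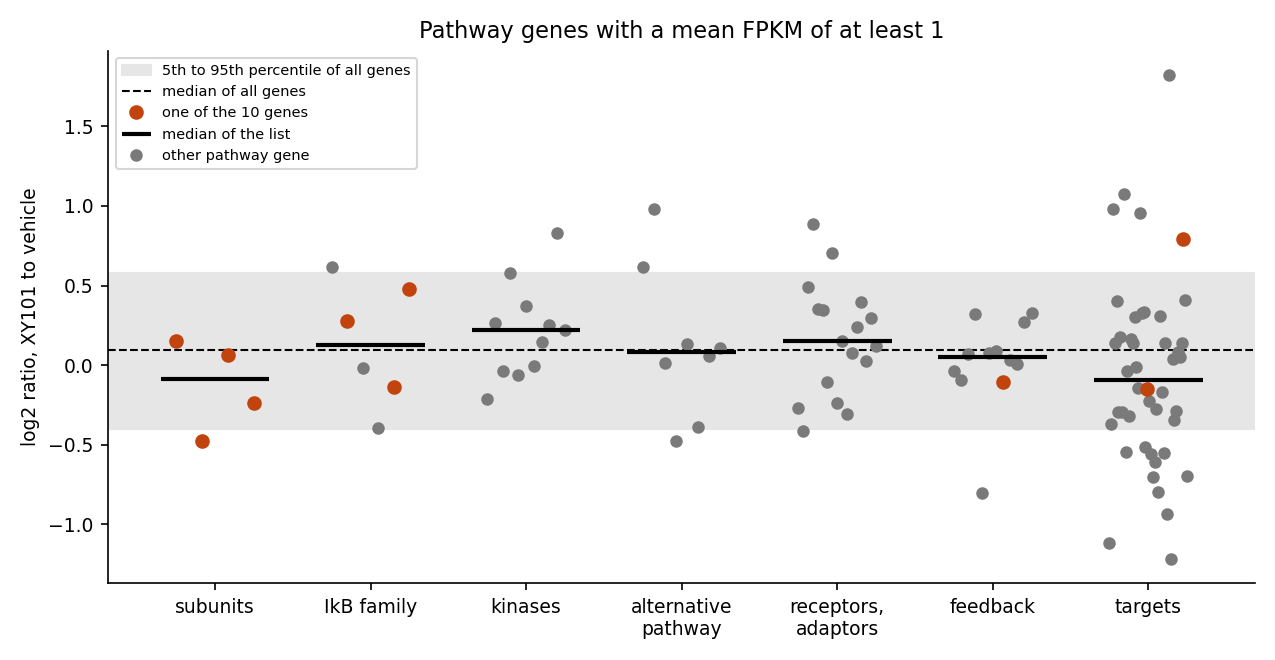
Log2 ratio of XY101 to vehicle for expressed pathway genes (mean FPKM of 1 or more), by role, with the 10 genes marked and a bar at the median of each role; the band spans the 5th to 95th percentile of all genes and the dashed line is their median. Medians run upward from -0.09 (targets, and subunits without REL) to 0.22 (kinases), and the targets, the longest list, cover the widest range.

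Other genes share a family name with TNFAIP2. TNFAIP1, which encodes a ubiquitin ligase adaptor, had 33.97 FPKM with XY101 and 35.37 FPKM with vehicle, and the median of the 5 expressed, TNFAIP2 and TNFAIP3 included, was -0.06 (0.17 with genes of low level included). TNFAIP8 had 13.55 and 10.19 FPKM, and its paralogue TNFAIP8L1 had 10.12 and 10.77 FPKM. Of the ICAM family, ICAM2 had 40.94 FPKM with XY101 and 50.17 FPKM with vehicle, and the 3 expressed members had a median of -0.15, which is the ratio of ICAM1. ICAM5 was listed at 0 in both libraries.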

How the data were processed

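Poly(A) RNA of HUCCT-1 cells was sequenced, 1 library per condition. The authors deposited FPKM, rounded to 2 decimals; of the 17424 table lines, 770 name no gene and were dropped. Alignment is described in conflicting ways: RSEM, Bowtie 2 and BWA on hg19 in the study's methods, but HTSeq 0.11.2 and HISAT2 on GRCh38 in the submitters' notes. Which made the values is not settled, and it decides how shared reads were divided. From these FPKM, log2((XY101 + 0.1)/(vehicle + 0.1)) was computed, and genes averaging 1 FPKM or more gave the background. Fold thresholds apply to this ratio; printed folds are plain FPKM ratios. No test was run.

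Depth was estimated, for genes with 1 annotated transcript, as the depth and length offset (290 nt) at which most of at least 100 low values came out whole within 0.2 fragments: 78.9% of 114 values for XY101 and 84.8% of 112 for vehicle. Depth and intervals are therefore approximate. Ratios, intervals and the depth scan were run on data simulated with counting error only, at the depth and offset found here. The check of the intervals was given that depth, so it does not cover the error of estimating it. Members and lists were chosen with earlier results of these data known. Named genes were the 10, and in each of the 9 pathway lists the expressed genes past 1.5-fold and the 2 most abundant. REL, NFKBIB, NFKBID, CYLD, MAP3K14, NXPE3, TNFAIP8, TNFAIP8L1, ICAM5, the marker genes and the cytokine genes of the closing section were picked for context after their values were seen. The compound's target is not reported here. The alternatives were other pseudocounts, filters, centring and scalings. Software: scipy 1.17.1 (intervals), matplotlib 3.10.9 (plots), numpy 2.4.6, pandas 2.3.3, Python 3.11.15.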

Additional observations from a re-analysis of the deposited data

How the results depend on the processing

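Of 111 summary values recomputed under an alternative, 105 stayed within a set tolerance. For the median of a list this was the median half-width of its genes' counting intervals, and not an interval of the median itself. For summed ratios it was the half-width of their own counting interval, and for counts a factor of 1.5. Medians near 0 that changed sign, such as that of the 10 genes, still counted as staying. The counts of the 10 genes past a fold threshold did not change at all. Without a filter on low values, the subunit median was 0.063, against -0.09, because REL enters, and that of the TNFAIP genes 0.17, against -0.06. Genes at least 2-fold higher and lower numbered 127 and 76, but 69 and 41 with a pseudocount of 1 FPKM, 406 and 265 without a filter, and 53 and 34 at a mean FPKM of at least 5. Inhibitor RNA per subunit RNA was 1.47 with XY101 and 1.10 with vehicle over all 6 IκB genes. For the classical inhibitors against RELA, RELB and REL alone it was 1.68 and 1.44. The ratio was higher with XY101 each time, but these versions are not independent. All of them include NFKBIA, which was higher with XY101, while NFKBIB and NFKBIE were not. Of 70 ratios of the 10 genes, 66 stayed within the interval. The filter settings could not move these ratios or the summaries of the 10 genes, since all 10 passed every filter. Other pseudocounts moved the ratios little, so only centring and scaling could test them. Centring put NFKB2 at -0.57, NFKBIA at 0.18 and TNFAIP2 at 0.70, and scaling to the upper quartile put TNFAIP2 at 0.73. RELA changed sign under centring and under scaling to the upper quartile; the other 9 kept theirs under all 7 alternatives. No paired analysis was possible because each condition has 1 library, and no replicate could be left out. The counting intervals of RELA and NFKBIE took in 0, at the median and at the longest coding transcript. The ratio of RELA was itself near 0, at 0.06.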

Other observations

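Cytokine genes whose products signal through the receptors above were themselves expressed. These were picked after their values were seen, and no explanation is attached to them. TNF had 15.66 FPKM with XY101 and 14.21 FPKM with vehicle, and LTB, a ligand of the receptor encoded by LTBR, had 59.35 and 53.91 FPKM. IL1A had 32.92 and 48.46 FPKM, a log2 ratio of -0.56 beside the -0.70 of IL1B. Among chemokine targets the ratios ran both ways: CXCL8 had 195.48 FPKM with XY101 and 155.42 FPKM with vehicle, CCL2 294.65 and 222.78 FPKM, and CCL20 120.63 and 147.97 FPKM.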
